A study of Mus musculus with 8 samples.

Results

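The lysosomal genes described here encode the vacuolar H+-ATPase (V-ATPase), the membrane proteins of the lysosome, its hydrolases and their cofactors, its nutrient-sensing apparatus and the transcription factors of the MiT family. They were selected by symbol, as 45 rows of the 53735 genes in the deposited count tables. The list was chosen with earlier results of these data known, so the shares called in it are a description. All 45 had enough reads to be tested. mRNA was measured in bone marrow derived macrophages (BMDMs), which are marrow cells cultured until they become macrophages, here for 7 days. WT mice were Mkl1+/+, Apoe-/- and KO mice were Mkl1-/-, Apoe-/-, so every animal lacked Apoe. All were male, 6 months old and given Ang II for 7 days before the marrow was taken. The knockout of Mkl1, a coactivator of serum response factor, is global, so it was present in the animal as well as in the cultured cells. Experiment 1 held WT libraries 1 and 2 with KO libraries 5 and 6, and experiment 2 held WT libraries 3 and 4 with KO libraries 7 and 8.

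The lysosome is the acidic compartment in which macrophages break down what they engulf and what autophagy delivers. The V-ATPase acidifies it: the cytosolic V1 sector splits ATP and drives rotation of the V0 sector, which carries protons across the membrane. The acid activates the hydrolases, while transporters, the Ragulator complex and the Rag GTPases report the supply of amino acids to mTORC1. Tfeb, Tfe3, Mitf and Tfec form the MiT family, which binds E-box motifs with the core CACGTG in the promoters of many lysosomal genes.

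Promoters of 4 genes are shown as examples of genes called in the results below: Slc36a1 and Rragd were higher in KO in both experiments, Gaa in experiment 2 and Lamp1 in experiment 1. Each is the RefSeq window from 250 bases before to 50 bases after a gene's start, on GRCm38.p6, printed 5′ to 3′ on the strand of the gene. Capitals mark TCACGTG or its reverse complement CACGTGA, the extended form of the E-box. Matches on both strands are shown, and where TCACGTGA is present it contains both forms.
Slc36a1 (chr11:55204090-55204389, + strand): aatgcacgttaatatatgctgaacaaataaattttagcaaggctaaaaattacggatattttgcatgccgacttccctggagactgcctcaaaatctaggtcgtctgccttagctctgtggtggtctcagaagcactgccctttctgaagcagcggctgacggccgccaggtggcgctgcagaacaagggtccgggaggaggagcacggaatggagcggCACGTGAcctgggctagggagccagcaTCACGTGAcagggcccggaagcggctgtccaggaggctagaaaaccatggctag
Rragd (chr4:32982748-32983047, + strand): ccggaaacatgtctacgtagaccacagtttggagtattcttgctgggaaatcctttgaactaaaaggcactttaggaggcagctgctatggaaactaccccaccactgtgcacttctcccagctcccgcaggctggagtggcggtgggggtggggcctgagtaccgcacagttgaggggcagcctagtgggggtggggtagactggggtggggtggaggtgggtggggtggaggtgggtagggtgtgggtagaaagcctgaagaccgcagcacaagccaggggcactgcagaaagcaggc
Gaa (chr11:119267713-119268012, + strand): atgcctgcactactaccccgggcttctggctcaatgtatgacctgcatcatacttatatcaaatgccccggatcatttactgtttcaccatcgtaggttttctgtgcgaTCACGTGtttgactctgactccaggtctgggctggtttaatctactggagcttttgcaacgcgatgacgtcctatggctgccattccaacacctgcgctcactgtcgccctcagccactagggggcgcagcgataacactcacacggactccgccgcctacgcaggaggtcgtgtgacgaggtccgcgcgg
Lamp1 (chr8:13158911-13159210, + strand): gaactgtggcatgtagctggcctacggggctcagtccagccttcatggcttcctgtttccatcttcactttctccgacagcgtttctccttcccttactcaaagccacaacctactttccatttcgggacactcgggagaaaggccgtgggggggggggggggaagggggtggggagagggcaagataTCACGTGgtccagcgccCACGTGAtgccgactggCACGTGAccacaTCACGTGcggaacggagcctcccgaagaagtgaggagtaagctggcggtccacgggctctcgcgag

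The Slc36a1 window held 2 separate E-boxes, with the CACGTG core starting at bases 220 and 248 of the window, and the second of them was the full palindrome TCACGTGA. The Lamp1 window held 4, starting at bases 190, 206, 223 and 236. Gaa had 1, at base 111, and the Rragd window had none of these letters. RefSeq promoters were found for 39 of the 45 genes; the others were Atp6v0d2, Atp6v1b2, Atp6v1c1, Atp6v1h, Npc1 and Asah1. CACGTG was present for 12 of the 39 genes (Atp6v0b, Atp6v0d1, Atp6v0e, Atp6v1a, Gaa, Glb1, Lamp1, Lamtor1, Lgmn, Mcoln1, Naglu and Slc36a1). Counted by promoter, 25.0% of the 48 windows of these genes held it, against 7.15% of all 32851 windows, and 10.4% held TCACGTGA, against 0.974%. A match describes the letters of the window and not the binding of a factor. Of the 19 genes with a promoter that were higher in KO in experiment 1, 4 held the core. It was present for 2 of the 4 that were lower there and for 6 of the 16 that did not pass the test.

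Depth ranged from 33977799 to 41584540 counts per library, and the lysosomal genes held between 2.65% and 3.65% of the counts. Differences are given as log2 fold changes of KO over WT with edgeR's quasi-likelihood test, fitted in each experiment on the 14418 genes with enough reads, and p-values were adjusted by the Benjamini-Hochberg method over all of these. "Higher" and "lower" mean an adjusted p under 0.05. The design text treats the libraries as separate samples but does not tie each to its own mouse, so p-values measure the spread between these libraries. Levels are in CPM, the counts of a gene relative to the TMM-scaled size of its library. Mkl1 itself had 25.6 and 27.1 CPM in WT against 19.5 and 20.9 CPM in KO in experiment 1 (log2 fold change -0.39, standard error 0.08, adjusted p = 0.00381) and 26.8 and 29.5 CPM in WT against 14.6 and 10.4 CPM in KO in experiment 2 (log2 fold change -1.17, standard error 0.19, adjusted p = 0.0218). Macrophage markers were abundant in every library, with summed levels between 14573 and 35581 CPM, led by Lyz2, but they did not keep their level across groups. Adgre1 was lower in KO in experiment 1 and higher in experiment 2 (log2 fold changes -2.11 and 0.91), whereas Csf1r was higher and then lower (0.82 and -1.28). The 8 fibroblast markers summed to 174 and 229.7 CPM in KO libraries 5 and 6 and to between 1.94 and 11.2 CPM in the other 6 libraries, and all 6 of those tested were higher in KO in experiment 1. Across all genes, the WT group of experiment 1 lay closest to the KO group of experiment 2 (median distance 0.138 on the log2 scale), closer than the WT groups lay to each other (0.314) or the KO groups to each other (0.326). The KO group of experiment 1 and the WT group of experiment 2 lay farthest apart over all genes (0.392). For the 45 lysosomal genes the same distances were 0.137, 0.206, 0.262 and 0.328, and the groups farthest apart were WT and KO of experiment 1 (0.357). Every KO library had less Mkl1 than every WT library in both experiments, as labelled. The KO mean of Mkl1 was 0.77 of the WT mean in experiment 1 and 0.44 in experiment 2. That difference passed edgeR's test of the interaction of genotype and experiment (-0.79, adjusted p = 0.0238). Beyond Mkl1, whether libraries were exchanged between groups or experiments was not tested. The direction of every difference between KO and WT given here rests on the labels.

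**Figure D1:**
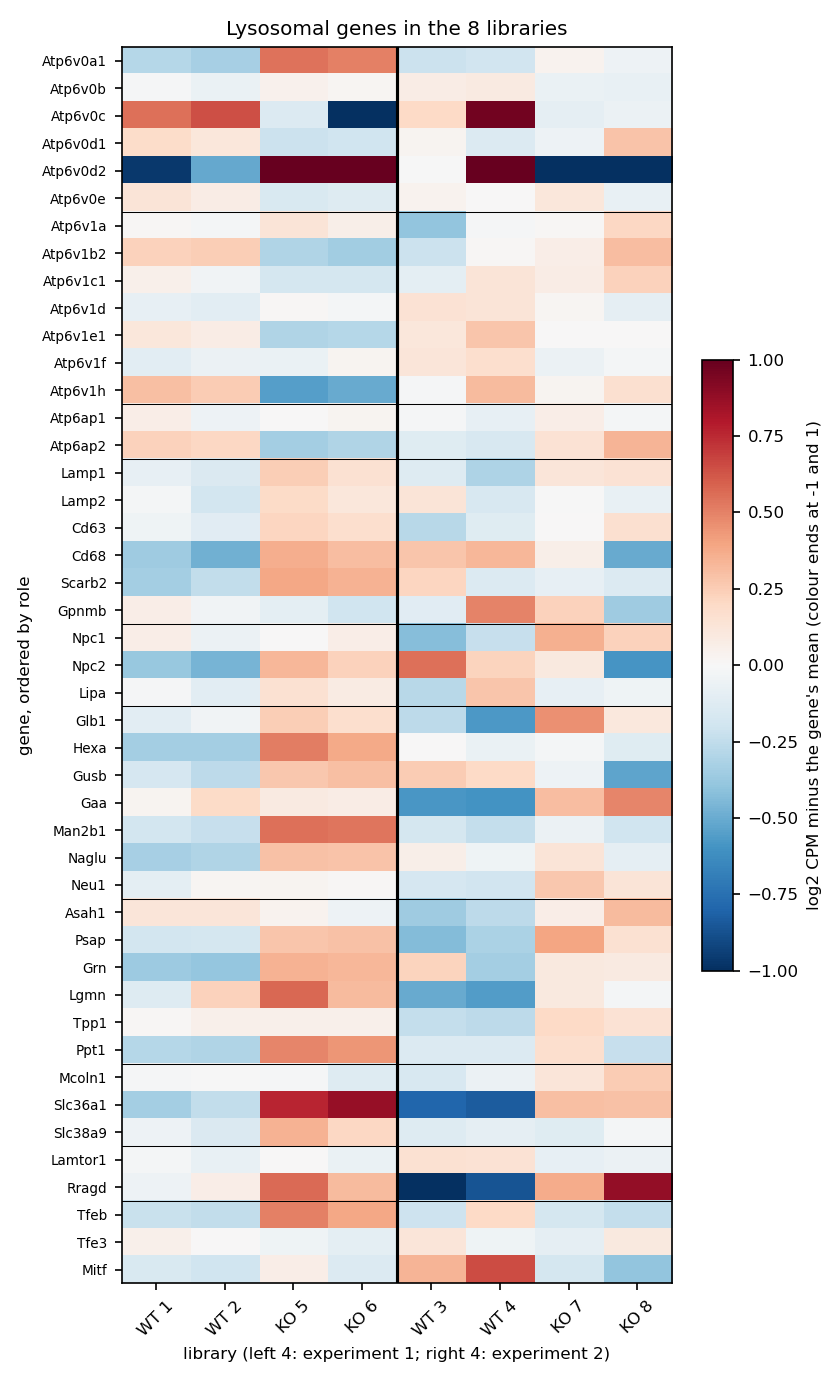
Level of each of the 45 lysosomal genes in the 8 libraries, as log2 CPM minus the mean of the gene over all libraries; red is above the mean and blue below, colours end at -1 and 1, and genes follow the order of their roles. KO libraries 5 and 6 are blue for much of the V-ATPase and red for most other genes, and the row of Atp6v0d2 changes sign between the experiments.

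In experiment 1, 20 of the 45 genes were higher in KO and 7 were lower, where 27% of all genes tested were higher and 28.1% were lower (55.1% in all). The median log2 fold change of the 45 was 0.14, against 0.01 for all genes. All 7 lower genes encode V-ATPase subunits or accessory proteins, and 18 of the 30 genes outside the V-ATPase were higher while none was lower. For those 30 the median was 0.33 and 25 lay above 0, and for the 15 V-ATPase genes, of which 2 were higher, it was -0.19. Upper-quartile scaling, which moved the median of all genes to 0.11, gave 5 higher and 6 lower V-ATPase genes (55.4% of all genes were called). Requiring a 1.5-fold change left 2 V-ATPase genes higher and 1 lower, and 10 of the 30 others higher (29.5% of all genes). The 30 others had none lower under each alternative except DESeq2, which called Gpnmb lower, and the fit with no filter on low counts, which called Gpnmb and Asah1 lower. A change of at least 2-fold was seen for 2 of the higher genes, Atp6v0d2 and Slc36a1, and for none of the lower ones, where 9.66% and 5.81% of all genes had it. Both KO libraries were above both WT libraries for 26 of the 45 and below for 11 (41.2% and 38.8% of all genes). The summed fibroblast markers given above were high in the same KO libraries, and their part in these counts was not tested. In experiment 2 far fewer genes passed. Slc36a1, Rragd, Npc1 and Gaa were higher and Atp6v0d2 and Mitf lower, 4 and 2 of 45, where 7.52% and 8.29% of all genes were called (15.8% in all), so the share called was near the background in both directions. At least 2-fold were Slc36a1 and Rragd among the higher genes and Atp6v0d2 among the lower ones (3.64% and 5.19% of all genes). The 39 others lay between -0.71 and 0.70. KO was above WT without overlap for 17 genes and below for 11 (32.9% and 32.5% of all genes). The median of the 45 was 0.07 in experiment 2. In bulk RNA, fewer cells of a type cannot be told apart from less RNA per cell.

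**Figure D2:**
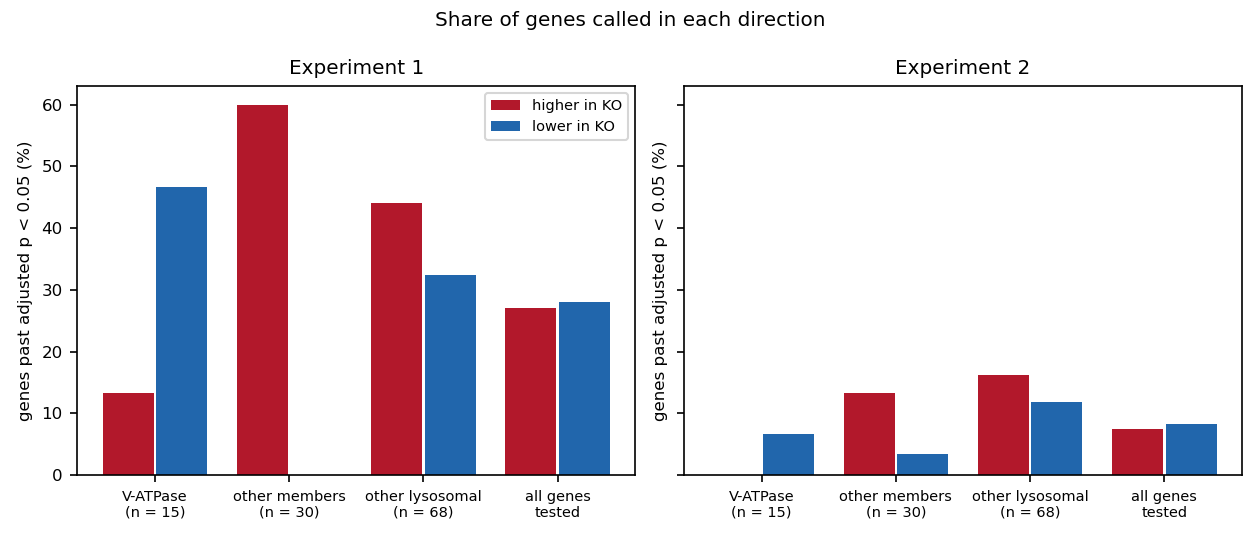
Share of genes, in percent, that were higher (red) or lower (blue) in KO in each experiment, for the 15 V-ATPase genes, the 30 other genes of the list, 68 further lysosomal genes and all genes tested. In experiment 1 the V-ATPase has 13.3% higher and 46.7% lower, and the 30 others have 60% higher and none lower.

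Leaving out each library of experiment 1 in turn kept 24 of its 27 calls; those of Atp6v1c1, Lamp1 and Lamp2 were lost and are described below. In experiment 2 no call was kept in all 4 such fits. Without KO library 8 none of the 45 genes passed (1.61% of all genes did), without WT library 3 there were 2 higher and 3 lower (5.57% of all genes), without WT library 4 there were 3 and 1 (9.63%), and without KO library 7 there were 3 and 0 (5.84%). DESeq2 called 10 higher and 3 lower in experiment 2, where it called 22% of all genes. A fit of all 8 libraries with 1 spread for both experiments called 13 and 4, and 34% of all genes.

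The V0 sector held the gene that moved most. Atp6v0d2 (Ensembl gene model at chr4:19876841-19922605, GRCm38, - strand) encodes an alternative form of the d subunit, which couples the V0 ring to the stalk, and is abundant in osteoclasts and some macrophages. It had 19.0 and 26.0 CPM in WT libraries 1 and 2 and 104 and 97.7 CPM in KO libraries 5 and 6. In experiment 2 it had 37.0 and 117 CPM in WT libraries 3 and 4 and 13.9 and 11.8 CPM in KO libraries 7 and 8. KO lay above WT in experiment 1 and below WT in experiment 2. The WT libraries of experiment 2 differed from each other more than 3-fold. The log2 fold change was 2.15 (standard error 0.15, adjusted p = 0.000219) in experiment 1 and -2.58 (standard error 0.57, adjusted p = 0.0458) in experiment 2. The difference between them passed the test of the interaction of genotype and experiment (-4.75, adjusted p = 0.0017). Among all genes, 3.23% were higher in the first and lower in the second; 3.11% had the reverse, as none of the 45 did. The call in experiment 2 was lost without KO library 7 (adjusted p = 0.145) or KO library 8 (0.201), with limma-voom (0.0571) and with no filter on low counts (0.339). Without WT library 4 the change of Atp6v0d2 was -1.53. Osteoclast markers summed to between 50.6 and 67.1 CPM in 6 libraries and to 101 CPM in KO libraries 5 and 6, mostly from Nfatc1. Of the listed markers, Calcr, Oscar and Ocstamp were at or near 0 in all 8 libraries (at most 1.01 CPM). Ctsk was present in every library, from 6.02 CPM in KO library 8 to 17.1 CPM in WT library 3. It passed in neither experiment (log2 fold changes -0.27 and -0.75). Of the 8 osteoclast markers 5 were tested, and they did not move together: 2 were higher and 1 lower in each experiment. In experiment 1 Itgb3 and Nfatc1 were higher (log2 fold changes 2.59 and 0.98, adjusted p = 1.33e-06 and 1.47e-05). Acp5, the tartrate-resistant acid phosphatase, was lower there (-1.71, adjusted p = 2.19e-05). In experiment 2 Acp5 and Nfatc1 were higher (1.27 and 0.50, adjusted p = 0.0273 and 0.0384). Dcstamp, a fusion gene of osteoclasts and giant cells, was the lower one, with 1.84 and 3.05 CPM in WT against 0.195 and 0.144 CPM in KO (log2 fold change -3.82, standard error 0.45, adjusted p = 0.0117). The part these cells play in the level of Atp6v0d2 was not tested.

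Atp6v0d1, the common d subunit, went the other way in experiment 1. It had 207 and 197 CPM in WT against 156 and 158 CPM in KO (log2 fold change -0.37, standard error 0.06, adjusted p = 0.000932), and both KO libraries were below both WT libraries. Its levels in experiment 2 were 185 and 165 CPM in WT against 175 and 221 CPM in KO, with overlapping groups (log2 fold change 0.18, adjusted p = 0.473). Atp6v0a1, an isoform of the large a subunit through which protons pass, had 184 and 179 CPM in WT against 327 and 318 CPM in KO in experiment 1, 1 of 2 V0 genes that were higher (log2 fold change 0.82, standard error 0.06, adjusted p = 1.56e-05). Experiment 2 gave 193 and 197 CPM in WT against 229.9 and 217 CPM in KO (log2 fold change 0.20, adjusted p = 0.288). The interaction passed (-0.63, adjusted p = 0.00363). Atp6v0e, a small membrane subunit, fell by 0.25 on the log2 scale in experiment 1 (adjusted p = 0.00518) and had 135 and 133 CPM in WT against 142 and 125 CPM in KO in experiment 2. That call was lost in the fit of all 8 libraries with 1 spread (adjusted p = 0.0518). Atp6v0b, a ring subunit, passed in neither experiment (log2 fold changes 0.06 and -0.15). Atp6v0c, the main subunit of the proton-carrying ring, had 54.3 and 57.9 CPM in WT libraries 1 and 2 and 33.6 and 8.76 CPM in KO libraries 5 and 6. The levels of experiment 2 were 42.6 and 72.4 CPM in WT libraries 3 and 4 and 34.8 and 35.6 CPM in KO libraries 7 and 8. KO lay below WT in both experiments without passing the test (log2 fold changes -1.42 and -0.71, adjusted p = 0.287 and 0.132). KO library 6 was far below the rest. Atp6v0c has pseudogene copies that can share its reads, so its level is uncertain; the listed copy Atp6v0c-ps1 held 7 counts over the 8 libraries, against 12763 for Atp6v0c.

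The V1 sector had 4 of 7 genes lower and none higher in experiment 1, where 28.1% and 27% of all genes were. Atp6v1h, a regulatory subunit that joins the sectors, had 196 and 189 CPM in WT against 108 and 112 CPM in KO (log2 fold change -0.82, standard error 0.06, adjusted p = 1.49e-05). Atp6v1b2, the nucleotide-binding B subunit of most tissues, had 548 and 553 CPM in WT against 379 and 367 CPM in KO (log2 fold change -0.57, standard error 0.06, adjusted p = 0.000115). Atp6v1e1, part of the peripheral stalk, had 226 and 219.8 CPM in WT against 169.6 and 171 CPM in KO (log2 fold change -0.40, standard error 0.06, adjusted p = 0.00053). For each of the 3, both KO libraries were below both WT libraries. Atp6v1c1, a stalk subunit that takes part in assembly, fell least (280.3 and 264 CPM in WT against 239 and 240.3 CPM in KO, log2 fold change -0.19, adjusted p = 0.0239). Its call was lost without WT library 1, KO library 5 or KO library 6 (adjusted p = 0.136, 0.0911 and 0.0699). It was also lost with upper-quartile scaling (log2 fold change -0.09, adjusted p = 0.207). Atp6v1a, the catalytic subunit, and the stalk subunits Atp6v1d and Atp6v1f had log2 fold changes of 0.09, 0.08 and 0.05, none past the test. None of the 7 passed in experiment 2, where they lay between -0.19 and 0.30. Atp6v1b2 had 403 and 469 CPM in WT against 489 and 578 CPM in KO there (log2 fold change 0.29, adjusted p = 0.264). The interaction passed for it (0.85, adjusted p = 0.00586) and for Atp6v1h (0.74, adjusted p = 0.0104). Of the accessory proteins, Atp6ap2, the prorenin receptor, which is also needed to assemble the pump, had 403 and 398 CPM in WT against 272 and 279 CPM in KO in experiment 1 (log2 fold change -0.55, standard error 0.06, adjusted p = 0.00012). In experiment 2 it had 317 and 309 CPM in WT against 380.3 and 437 CPM in KO (log2 fold change 0.38, adjusted p = 0.114). KO was below WT in the first and above it in the second (interaction 0.92, adjusted p = 0.00173). Atp6ap1 lay at 0.00 and 0.07, with overlapping groups in both experiments. Summed over the 15 V-ATPase genes, the level was 4142 and 4040.1 CPM in WT and 3867 and 3792 CPM in KO in experiment 1. It was 3637 and 4089 CPM in WT and 4007 and 4304 CPM in KO in experiment 2, where the groups overlapped.

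**Figure D3:**
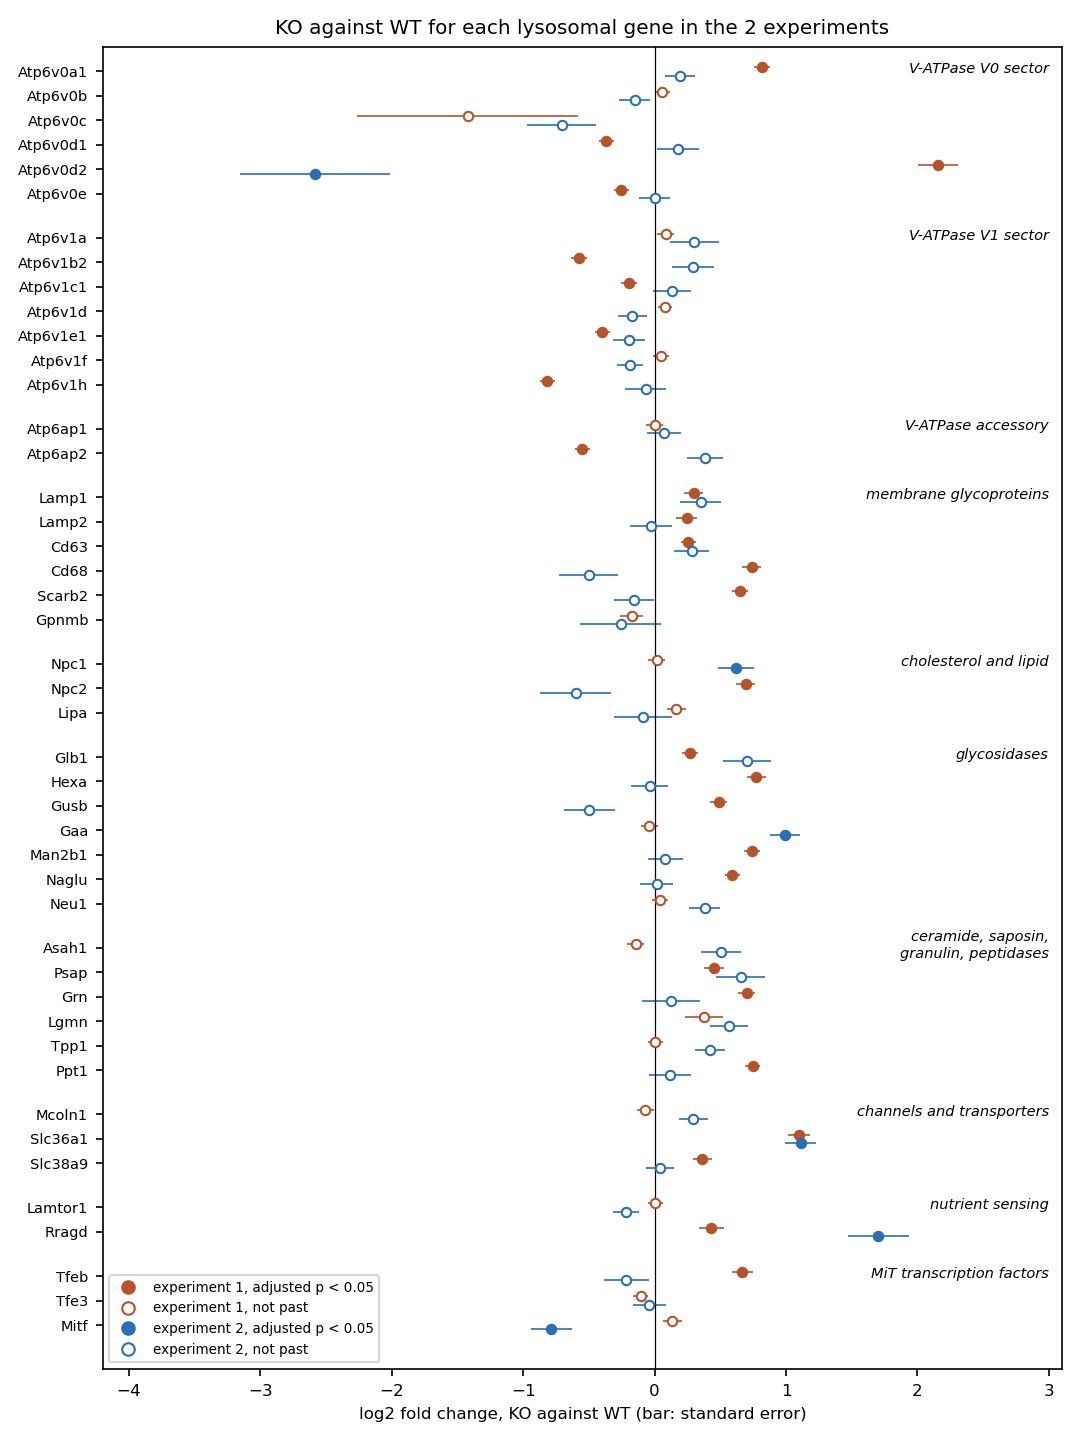
Log2 fold change of KO against WT for each of the 45 genes, with bars of 1 standard error, in experiment 1 (orange) and experiment 2 (blue); filled points have an adjusted p under 0.05. The 7 genes that were lower in experiment 1 all lie in the V-ATPase groups at the top, bars are wider in experiment 2 for most genes but not for Atp6v0c and Lgmn, and Slc36a1 has nearly the same value in both.

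Among the membrane glycoproteins, 5 of 6 were higher in KO in experiment 1, where 27% of all genes were, and none passed in experiment 2. Cd68, the macrosialin of phagocytes, had 884 and 811 CPM in WT against 1450.1 and 1399 CPM in KO in experiment 1 (log2 fold change 0.74, standard error 0.07, adjusted p = 8.32e-05). Its levels in experiment 2 were 1373 and 1422 CPM in WT against 1178 and 795 CPM in KO (log2 fold change -0.50, adjusted p = 0.18). KO was above WT in the first and below it in the second (interaction -1.25, adjusted p = 0.00639). Scarb2, which carries glucocerebrosidase to the lysosome, rose in experiment 1 (150.4 and 161 CPM in WT against 249.5 and 243 CPM in KO, log2 fold change 0.65, adjusted p = 6.26e-05). Its groups overlapped in experiment 2 (interaction -0.82, adjusted p = 0.0075). Lamp1 and Lamp2, the main coat proteins of the lysosomal membrane, and the tetraspanin Cd63 rose by less, with log2 fold changes of 0.30, 0.24 and 0.26 (adjusted p = 0.0101, 0.028 and 0.00675). The call of Lamp1 was lost without KO library 5 (adjusted p = 0.0701), that of Lamp2 without WT library 2 (0.142) or KO library 5 (0.127). All 3 were lost in the fit of all 8 libraries with 1 spread (adjusted p = 0.0518, 0.132 and 0.0536). Lamp1 had 2081 and 1845 CPM in WT against 2486 and 2517 CPM in KO in experiment 2, and KO was above WT in both experiments. Gpnmb, a glycoprotein of lipid-laden phagocytes, passed in neither (log2 fold changes -0.18 and -0.26). Its lowest library of all was KO library 8, with 5692 CPM, and its highest was WT library 4, with 10260.4 CPM.

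The proteins that move cholesterol out of the lysosome did not change together. Npc2, the soluble carrier, had 648 and 611 CPM in WT against 1061 and 991 CPM in KO in experiment 1 (log2 fold change 0.69, standard error 0.07, adjusted p = 9.69e-05). Experiment 2 gave 1236 and 983 CPM in WT against 902 and 561 CPM in KO (log2 fold change -0.60, adjusted p = 0.188). KO was above WT in the first and below it in the second. The interaction passed (-1.31, adjusted p = 0.0127), but not without WT library 2 (0.0561) or KO library 5 (0.0503). Npc1, the membrane protein that receives cholesterol from it, had 351 and 321 CPM in WT against 335 and 349.9 CPM in KO in experiment 1 (log2 fold change 0.02, adjusted p = 0.863). The levels of experiment 2 were 249 and 285 CPM in WT against 428 and 394 CPM in KO (log2 fold change 0.62, standard error 0.14, adjusted p = 0.0405). Its call in experiment 2 was lost without WT library 3, WT library 4, KO library 7 or KO library 8 (adjusted p = 0.181, 0.0823, 0.121 and 0.116). Lipa, the acid lipase that frees cholesterol from its esters, passed in neither experiment (0.17 and -0.09).

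Of 7 glycosidases, 5 were higher in KO in experiment 1 and 1 in experiment 2, where 27% and 7.52% of all genes were. Hexa, the alpha subunit of hexosaminidase, had 804 and 801 CPM in WT against 1446 and 1318 CPM in KO in experiment 1 (log2 fold change 0.77, standard error 0.07, adjusted p = 6.37e-05). In experiment 2 it had 1019 and 968 CPM in WT against 1004 and 933 CPM in KO, where the groups overlapped (interaction -0.82, adjusted p = 0.00347). Man2b1, the acid alpha-mannosidase, had 459 and 446 CPM in WT against 768 and 756 CPM in KO in experiment 1 (log2 fold change 0.74, standard error 0.06, adjusted p = 3.59e-05). Naglu, which acts on heparan sulphate, had 78.4 and 80.1 CPM in WT against 121 and 119.9 CPM in KO (log2 fold change 0.59, standard error 0.05, adjusted p = 5.99e-05). In experiment 2 both lay near 0 (0.08 and 0.02), and the interaction passed for both (adjusted p = 0.00549 and 0.00991). Gusb, the beta-glucuronidase, was above WT in KO in experiment 1 (476 and 446 CPM in WT against 645 and 659 CPM in KO, log2 fold change 0.49, adjusted p = 0.000401). It was below WT in experiment 2 (639.9 and 614 CPM in WT against 516 and 372 CPM in KO, -0.50, adjusted p = 0.139; interaction -0.998, adjusted p = 0.0083).

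Gaa, the acid alpha-glucosidase that degrades glycogen, was higher in experiment 2 without passing in experiment 1. It had 107 and 119.9 CPM in WT libraries 1 and 2 and 112 and 111 CPM in KO libraries 5 and 6, with overlapping groups (log2 fold change -0.04, adjusted p = 0.65). Its levels in experiment 2 were 70.2 and 69.6 CPM in WT libraries 3 and 4 and 131 and 147 CPM in KO libraries 7 and 8. In experiment 2 the KO mean was 1.99 times the WT mean (log2 fold change 0.99, standard error 0.12, adjusted p = 0.0115). The interaction passed (1.02, adjusted p = 0.00117). Without KO library 8 the adjusted p of Gaa in experiment 2 was 0.0589. Glb1, the beta-galactosidase that is stained as a marker of senescent cells, had 160.4 and 169 CPM in WT against 205 and 194 CPM in KO in experiment 1 (log2 fold change 0.27, standard error 0.06, adjusted p = 0.00595). Experiment 2 gave 144 and 116 CPM in WT against 237 and 186 CPM in KO (log2 fold change 0.70, adjusted p = 0.0575). Both KO libraries were above both WT libraries in each experiment. The call in experiment 1 was lost in the fit of all 8 libraries with 1 spread (adjusted p = 0.152). Neu1, the sialidase, had log2 fold changes of 0.04 and 0.38, neither past the test.

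Psap, the precursor of the saposins that help hydrolases reach sphingolipids, had the highest level of the 45 genes per kb of exon, 2165 ± 466 CPM per kb (SD, n = 8). It had 5115 and 5149.5 CPM in WT libraries 1 and 2 and 7033 and 7135 CPM in KO libraries 5 and 6. The levels of experiment 2 were 4303 and 4664 CPM in WT libraries 3 and 4 and 7659 and 6460.1 CPM in KO libraries 7 and 8. KO was above WT in both experiments without overlap, with log2 fold changes of 0.45 (adjusted p = 0.0014) and 0.65 (adjusted p = 0.0722). With both experiments in 1 fit and the experiment as a term it was higher (log2 fold change 0.56, standard error 0.12, adjusted p = 0.0363). It was 1 of 2 genes of the 45 to pass there, where 3.72% of all genes were higher and 3.41% lower (7.12% in all). Of the 8 fits that left out 1 library, the one without KO library 8 kept this call. Leaving out WT library 1, 2, 3 or 4 or KO library 5, 6 or 7 gave adjusted p = 0.113, 0.101, 0.0819, 0.0839, 0.109, 0.0969 and 0.103, and no filter on low counts gave 0.0529. Grn, progranulin, had 996 and 982 CPM in WT against 1633 and 1609 CPM in KO in experiment 1 (log2 fold change 0.70, standard error 0.07, adjusted p = 6.45e-05). In experiment 2 it had 1492 and 1011 CPM in WT against 1369 and 1366 CPM in KO, where WT library 3 was above both KO libraries. Ppt1, a thioesterase that removes palmitate from proteins, had 153 and 151 CPM in WT against 262 and 253 CPM in KO in experiment 1 (log2 fold change 0.75, standard error 0.06, adjusted p = 2.17e-05), and its groups overlapped in experiment 2 (0.12). Asah1, acid ceramidase, and the peptidases Lgmn and Tpp1 passed in neither experiment. Their log2 fold changes were -0.14, 0.38 and 0.00 in experiment 1 and 0.50, 0.57 and 0.42 in experiment 2. All 6 genes of this group had a value above 0 in experiment 2, and none passed. Of all 45 genes, 25 lay above 0 there, whereas 4 of 6 membrane glycoproteins and all 3 MiT factors lay below 0.

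Among the channels and transporters, Slc36a1 was higher in KO in both experiments. It encodes a proton-coupled transporter that exports small neutral amino acids from the lysosome (gene model at chr11:55204350-55236330, GRCm38, + strand). It had 15.5 and 16.5 CPM in WT libraries 1 and 2 and 33.2 and 35.8 CPM in KO libraries 5 and 6. Its levels in experiment 2 were 11.3 and 11.0 CPM in WT libraries 3 and 4 and 24.2 and 24.1 CPM in KO libraries 7 and 8. Every KO library was above every WT library, and the KO mean was 2.16 times the WT mean in experiment 1 and 2.16 times in experiment 2. The log2 fold changes were 1.10 (standard error 0.08, adjusted p = 1.96e-05) and 1.11 (standard error 0.12, adjusted p = 0.00965). The interaction did not pass (0.00, standard error 0.12, adjusted p = 0.992). In the fit of both experiments it rose by 1.11 (standard error 0.07, adjusted p = 0.000827). It was the one gene of the 45 that passed the test there with a change of at least 2-fold (1.23% of all genes were higher and 1.06% lower by as much). This held without each library in turn but not without the experiment term (adjusted p = 0.142). In experiment 2 alone the adjusted p was 0.0606 without KO library 8. Slc38a9, the transporter that signals lysosomal arginine, had the lowest level per kb, 2.44 ± 0.323 CPM per kb (SD, n = 8), next to 3.81 ± 1.69 for Slc36a1. Their ranges over the libraries overlapped. It had 39.1 and 36.7 CPM in WT libraries 1 and 2 and 51.4 and 46.8 CPM in KO libraries 5 and 6 (log2 fold change 0.36, standard error 0.07, adjusted p = 0.00346). Experiment 2 gave 37.1 and 38.1 CPM in WT libraries 3 and 4 and 37.2 and 40.0 CPM in KO libraries 7 and 8 (log2 fold change 0.04, adjusted p = 0.825). Its groups overlapped in experiment 2. Mcoln1, a cation channel that releases calcium from the lysosome, passed in neither experiment (-0.07 and 0.30).

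Rragd encodes RagD, a GTPase that with Ragulator places mTORC1 and the MiT factors at the lysosome (gene model at chr4:32983037-33022180, GRCm38, + strand). It had 41.7 and 45.2 CPM in WT libraries 1 and 2 and 64.3 and 53.8 CPM in KO libraries 5 and 6. The levels of experiment 2 were 17.8 and 23.8 CPM in WT libraries 3 and 4 and 55.9 and 79.7 CPM in KO libraries 7 and 8. KO was above WT in both experiments. Both WT libraries of experiment 2 were below both WT libraries of experiment 1, a difference that was not tested. The log2 fold change was 0.43 (standard error 0.09, adjusted p = 0.00653) in experiment 1 and 1.70 (standard error 0.23, adjusted p = 0.0169) in experiment 2. The interaction passed (1.26, adjusted p = 0.0101). Slc36a1 and Rragd were the 2 genes of the 45 that were higher in both experiments, and none was lower in both, where 2.13% and 2.25% of all genes were. The call of Rragd in experiment 2 was lost without WT library 3 (adjusted p = 0.0506) or KO library 8 (0.0674). That in experiment 1 was lost in the fit of all 8 libraries with 1 spread (0.106), and the fit of both experiments did not call it (1.07, adjusted p = 0.0708). Lamtor1, which anchors Ragulator to the membrane, lay at 0.00 and -0.22, neither past the test.

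**Figure D4:**
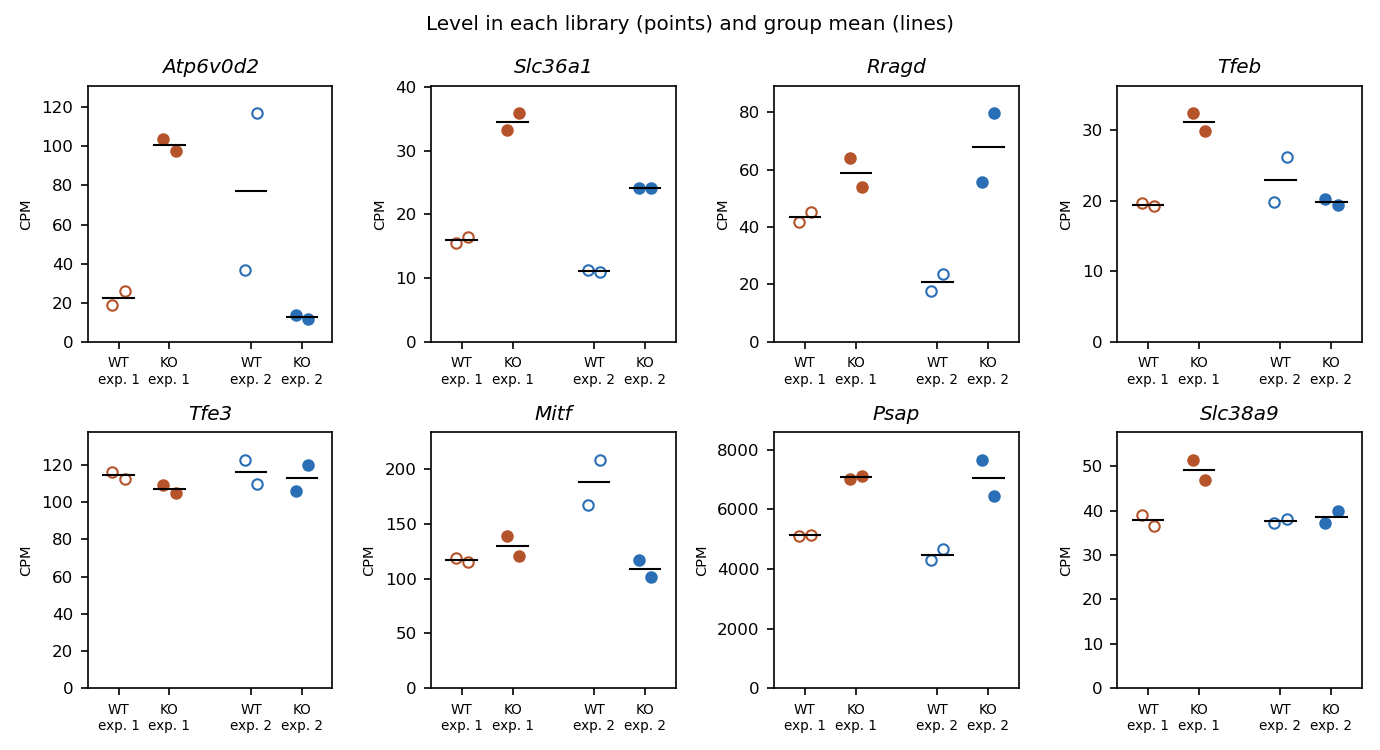
CPM of 8 lysosomal genes in each library (points; open WT, filled KO) with the group mean (line), by experiment; each axis starts at 0 and has its own scale. Slc36a1 and Rragd have both KO points above both WT points in each experiment, whereas Atp6v0d2 has KO above WT in experiment 1 and below WT in experiment 2.

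Of the MiT transcription factors, Tfeb was higher in KO in experiment 1, Mitf was lower in experiment 2 and Tfe3 passed in neither. Tfeb had 19.6 and 19.2 CPM in WT libraries 1 and 2 and 32.4 and 29.9 CPM in KO libraries 5 and 6. In experiment 2 it had 19.8 and 26.2 CPM in WT libraries 3 and 4 and 20.3 and 19.4 CPM in KO libraries 7 and 8. In experiment 1 KO was above WT (log2 fold change 0.67, standard error 0.08, adjusted p = 0.000195). In experiment 2 the groups overlapped, with WT library 4 above the rest (log2 fold change -0.21, adjusted p = 0.419; interaction -0.89, adjusted p = 0.00868). Mitf had 119 and 115 CPM in WT libraries 1 and 2 and 139 and 121 CPM in KO libraries 5 and 6. Its levels in experiment 2 were 167 and 208 CPM in WT libraries 3 and 4 and 117 and 101 CPM in KO libraries 7 and 8. It did not pass in experiment 1 (log2 fold change 0.14, adjusted p = 0.155). KO was below WT in experiment 2 (log2 fold change -0.78, standard error 0.16, adjusted p = 0.0321; interaction -0.93, adjusted p = 0.0065). The call of Mitf in experiment 2 was lost without WT library 4, KO library 7 or KO library 8 (adjusted p = 0.0835, 0.0848 and 0.145). Tfe3 had 116 and 113 CPM in WT libraries 1 and 2 and 109 and 105 CPM in KO libraries 5 and 6. Experiment 2 gave 123 and 109.6 CPM in WT libraries 3 and 4 and 106 and 120.3 CPM in KO libraries 7 and 8. It passed in neither experiment (log2 fold changes -0.11 and -0.04, standard errors 0.06 and 0.13). Per kb of exon, Mitf was at 21.9 ± 5.70, Tfe3 at 12.2 ± 0.702 and Tfeb at 4.12 ± 0.947 CPM per kb (SD, n = 8), and the ranges of the 3 over the libraries did not overlap.

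The test of the interaction compares the KO effect between experiments directly. It passed for 22 of the 45 genes, where 41.6% of all genes passed (21% with a more positive effect in experiment 2 and 20.6% with a more negative one), so the share was near the background. The KO effect was more positive in experiment 2 for 10 (Atp6v0d1, Atp6v1b2, Atp6v1h, Atp6ap2, Npc1, Gaa, Asah1, Tpp1, Mcoln1 and Rragd) and more negative for 12 (Atp6v0a1, Atp6v0d2, Cd68, Scarb2, Npc2, Hexa, Gusb, Man2b1, Naglu, Ppt1, Tfeb and Mitf). Of the 22, 15 passed with each library left out in turn. Atp6v0d1, Npc1, Npc2, Asah1, Tpp1, Ppt1 and Mcoln1 did not, with adjusted p up to 0.111, 0.0557, 0.0561, 0.062, 0.0825, 0.0842 and 0.153. For Atp6v0d1 and Mcoln1 most single libraries ended the call. Leaving out WT library 2 ended those of Npc2, Asah1, Tpp1 and Ppt1, WT library 1 those of Npc1, Tpp1 and Ppt1, KO library 5 those of Npc1, Npc2, Tpp1 and Ppt1, KO library 6 those of Asah1, Tpp1 and Ppt1, and WT library 3 that of Ppt1.

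Per kb of exon the levels spanned almost 3 orders of magnitude. After Psap came Gpnmb at 1132 ± 221, Cd68 at 926 ± 230.3, Lamp1 at 859 ± 112, Lgmn at 606 ± 161, Hexa at 519 ± 116 and Grn at 376 ± 79.1 CPM per kb (SD, n = 8). The range of each of these over the 8 libraries overlapped that of the next. Psap and Gpnmb overlapped at the edge, with 1568 CPM per kb in its lowest library against 1575 in the highest of Gpnmb. Within the V-ATPase, Atp6ap1 (158 ± 5.70), Atp6v1a (148 ± 16.8), Atp6ap2 (133 ± 23.9) and Atp6v0b (130.3 ± 5.92) were highest per kb, and the range of each over the libraries overlapped that of the next. Atp6v0d1 had 102 ± 13.2 CPM per kb and Atp6v0d2 19.6 ± 16.5, so the common form of the d subunit was the higher of the pair in every library.

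A list of 76 further lysosomal genes, which shares no gene with the 45 and leaves out the cathepsins, gave the surroundings of these results. Of 68 tested, 30 were higher and 22 lower in KO in experiment 1 (44.1% and 32.4%), and 11 and 8 in experiment 2 (16.2% and 11.8%), against the shares of all genes given above. The split between the V-ATPase and the rest was not seen in this list in experiment 1: of its 23 hydrolases tested, 13 were higher and 9 lower, and of its 5 V-ATPase genes tested, 2 were higher and 2 lower, with a median log2 fold change of 0.55. Sgsh, which removes sulphate from heparan, had the smallest p among the higher genes in both experiments. It had 38.5 and 41.2 CPM in WT libraries 1 and 2 and 114 and 118 CPM in KO libraries 5 and 6. The levels of experiment 2 were 17.8 and 18.7 CPM in WT libraries 3 and 4 and 77.5 and 64.9 CPM in KO libraries 7 and 8. Every KO library was above every WT library (log2 fold change 1.53, standard error 0.06, adjusted p = 1.7e-06 in experiment 1; log2 fold change 1.96, standard error 0.13, adjusted p = 0.00456 in experiment 2). Flcn and Fnip2 form a complex that acts on RagC and RagD, and both were higher in each experiment, with log2 fold changes of 0.47 and 0.85 for Flcn and 0.27 and 1.40 for Fnip2 (adjusted p = 0.000304, 0.0351, 0.0123 and 0.0149). Of the 12 nutrient-sensing genes of that list, which include these 2, 4 were higher and 2 lower in experiment 1. In experiment 2, 2 of the 12 were higher and 0 lower. Pla2g15, a lysosomal phospholipase, Slc17a5, the sialic acid exporter, and the cation channel Tpcn1 made up the other genes of that list higher in both. Those higher in both were 6 of 68, where 2.13% of all genes were. Acp2, the lysosomal acid phosphatase, was lower in both (-0.94 and -0.90), as was M6pr, a receptor that sorts hydrolases to the lysosome (-0.68 and -0.88). They were the 2 of 68 lower in both, where 2.25% of all genes were. Tfec, the remaining MiT factor, had 14.0 and 14.9 CPM in WT libraries 1 and 2 and 31.4 and 32.7 CPM in KO libraries 5 and 6. In experiment 2 it had 78.2 and 105 CPM in WT libraries 3 and 4 and 14.1 and 9.92 CPM in KO libraries 7 and 8. KO was above WT in experiment 1 (1.14, adjusted p = 1.55e-05) and below it in experiment 2 (-2.93, adjusted p = 0.00684), the direction of Atp6v0d2. The V-ATPase gene Tcirg1, an isoform of the a subunit, (0.55 and -0.58), the cation channel Mcoln3 (0.49 and -1.47) and Slc15a4 (0.55 and -0.65) had it too. With Tfec these were 4 of 68, where 3.23% of all genes were higher and then lower. Flcn, Fnip2, Pla2g15, Slc17a5, Tpcn1, M6pr, Tcirg1 and Slc15a4, and Gla further below, were chosen after their values were seen.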

How the data were processed

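BMDM mRNA was sequenced in 8 libraries, 4 WT and 4 KO, in 2 experiments. Per the labels and the submitters' processing notes, the authors aligned reads to GRCm38 with STAR 2.7.0f and counted them per gene with featureCounts (Subread 1.6.4); the annotation and the strand setting used are not given in the sources used here. The deposited tables hold raw counts, used here, and normalized counts, a signal that equals the counts divided by a factor set within each experiment with DESeq2 1.22.1, which served only to check the unit.

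Groups came from the labels. Genes passing filterByExpr by genotype over the 8 libraries (14418 of 53735) were tested with edgeR 4.0.16 (R 4.3.3; TMM scaling, robust quasi-likelihood fit and F test), within each experiment as the series' design text states, with experiment as an additive term, and for the interaction; p-values were adjusted by Benjamini-Hochberg. Standard errors were derived from the F statistic. Counts per kb used merged GENCODE M21 exons. Replicate libraries differed by more than counting noise (chi-square per gene 12.4 to 80.4), so none was a copy. Alternatives were DESeq2 1.42.0, voom of limma 3.58.1, upper-quartile scaling, other filters and thresholds, other samples in the fit and each library left out in turn.

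The members and lists were chosen with earlier results of these data known. Given library by library are genes changed at least 2-fold and past the threshold in an experiment, those past it in the same direction in both, the 3 MiT factors and the highest and lowest per kb; further genes are given by role. Of the other lysosomal genes, the 2 with the smallest p in each direction and experiment are given, and of each marker list the most abundant gene. Lists were macrophage, fibroblast, neutrophil, dendritic cell and osteoclast markers and other lysosomal genes, and some genes of the last were not analysed here.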

Additional observations from a re-analysis of the deposited data

Results flagged for a closer look

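In a test of the gap between the farthest library and its nearest neighbour within the 4 libraries of a genotype (Dixon's test at the 95% level), 4 of 90 tests passed. Chance passes about 1 in 20 for libraries of 1 kind, whereas the 4 libraries of a genotype come from both experiments, which the test ignores. Atp6v0c, the ring subunit, was at 8.76 CPM in KO library 6, where the other KO libraries were between 33.6 and 35.6 CPM. WT library 3 was apart for Atp6v1a, with 674 CPM against 878 to 896 CPM in the other WT libraries, and for Grn, with 1492 CPM against 982 to 1011 CPM. Tfeb was at 26.2 CPM in WT library 4 and between 19.2 and 19.8 CPM in the other WT libraries.

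The KO effect differed between the experiments for 22 genes by the interaction term of edgeR's quasi-likelihood test. As the effect in experiment 2 minus that in experiment 1, on the log2 scale, the values above 0 were 1.26 for Rragd, 1.02 for Gaa, 0.92 for Atp6ap2, 0.85 for Atp6v1b2, 0.74 for Atp6v1h, 0.64 for Asah1, 0.59 for Npc1, 0.54 for Atp6v0d1, 0.41 for Tpp1 and 0.35 for Mcoln1. Those below 0 were -4.75 for Atp6v0d2, -1.31 for Npc2, -1.25 for Cd68, -0.998 for Gusb, -0.93 for Mitf, -0.89 for Tfeb, -0.82 for Hexa, -0.82 for Scarb2, -0.67 for Man2b1, -0.64 for Ppt1, -0.63 for Atp6v0a1 and -0.59 for Naglu. Adjusted p ranged from 0.00117 for Gaa to 0.0445 for Mcoln1. The number of genes is near the share of all genes that passed, 41.6%.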

How the results depend on the processing

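No paired analysis was possible because the WT and KO libraries share no replicate number. Calls kept under every alternative numbered 13 of 27 in experiment 1 (12 alternatives), 0 of 6 in experiment 2 (12), 13 of 22 for the interaction (15) and 0 of 2 in the fit of both experiments (17). In experiment 1, requiring a 1.5-fold change left 12 higher and 1 lower (29.5% of all genes). The other alternatives kept both counts within 1.5 times of 20 and 7. Upper-quartile scaling, which put the median of all genes at 0.11, gave 26 and 6 (55.4% of all genes). In experiment 2 the counts of 4 higher and 2 lower (15.8% of all genes called) became 1 and 0 at an adjusted p under 0.01 (1.62% of all genes), 10 and 3 with DESeq2 (22%), 7 and 2 with upper-quartile scaling (16.4%), 8 and 1 with no filter (10.7%), 5 and 1 with limma-voom (15.6%) and 13 and 4 with 1 spread for all 8 libraries (34%), and without 1 library they ranged from 0 to 3 higher and 0 to 3 lower (1.61% to 9.63%). With both experiments, the 2 higher and 0 lower (7.12% of all genes) became 1 higher at 0.01 (1.44%), at 1.5-fold (4.64%) and with no filter (3.09%), 5 with upper-quartile scaling (7.78%), 8 and 1 with DESeq2 (17.3%), 0 with no experiment term (0.0277%), 18 and 3 for the mean effect in the fit that keeps the interaction (33.4%), and between 1 and 3 higher without 1 library (1.69% to 7.63%). For the interaction, 3 genes had a higher and 10 a lower effect in experiment 2 at 0.01 (22.5% of all genes), and 6 to 11 and 10 to 13 without 1 library (27.3% to 45.1%). A lone library left in a group was assumed to vary like the other groups, and the cause of these shifts was not tested. Signs turned only for values near 0 or not past the test. In experiment 2, Tfe3 was at 0.0146 with upper-quartile scaling and between -0.13 and 0.0497 without 1 library, Tfeb between -0.41 and 0.00351 without 1 library, and Slc38a9 between -0.0148 and 0.0900 without 1 library. The interaction of Slc36a1 was -0.0012 with limma-voom, -0.0333 with upper-quartile scaling and between -0.0448 and 0.0778 without 1 library, and that of Tfe3 between -0.0400 and 0.18 without 1 library. In both experiments together, Atp6v0d2 was at 0.0044 with limma-voom, 0.19 with no experiment term and between -1.24 and 0.83 without 1 library, and Tfe3 at 0.0045 with upper-quartile scaling. Summed levels scaled by library total were 28890.3 CPM in WT library 1, 36483 CPM in KO library 5 and 35531 CPM in KO library 6, against 29525, 35102 and 33678 CPM with TMM. The spread between libraries was wider in experiment 2 for most of the 45 genes, which limits the size of change that can pass there.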

Other observations

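Among the other lysosomal genes, opposite directions in the experiments were also seen for hydrolases. Lower in experiment 1 and higher in experiment 2 were 5 of the 68 genes tested, where 3.11% of all genes were. Plbd1, a phospholipase B-like protein, had 5.23 and 6.39 CPM in WT libraries 1 and 2 and 0.865 and 0.724 CPM in KO libraries 5 and 6. Its levels were reversed in experiment 2, with 1.53 and 0.603 CPM in WT libraries 3 and 4 and 4.63 and 9.13 CPM in KO libraries 7 and 8 (log2 fold changes -2.88 and 2.68; adjusted p = 2.19e-05 and 0.0395 by edgeR's quasi-likelihood test). KO was below WT in experiment 1 and above it in experiment 2. Idua, the alpha-L-iduronidase of glycosaminoglycan breakdown, had 76.6 and 74.5 CPM in WT against 62.1 and 58.4 CPM in KO in experiment 1 and 51.3 and 51.3 CPM in WT against 85.2 and 91.1 CPM in KO in experiment 2 (-0.34 and 0.78). Gla, the alpha-galactosidase, had the same order (-0.43 and 0.84). Sort1, a sorting receptor of the Golgi, was higher in experiment 1 (27.6 and 25.3 CPM in WT against 67.3 and 61.1 CPM in KO, 1.27) and had 37.0 and 49.3 CPM in WT against 34.3 and 34.5 CPM in KO in experiment 2 (-0.33, adjusted p = 0.217).

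Of the other marker lists, the neutrophil genes summed to between 0.324 and 1.52 CPM, led by S100a8, and the dendritic cell genes to between 0.536 and 1.53 CPM, led by Zbtb46. Among the fibroblast genes Col1a2 was the most abundant, with 81.7 and 104 CPM in KO libraries 5 and 6 and at most 5.36 CPM in the others, and Lum and Thy1 were at or near 0 in all 8.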
